A study of Mus musculus with 14 samples.

Results

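Oxidative phosphorylation in single type 1 conventional dendritic cells (cDC1) was described here through 91 nuclear genes whose names begin with Nduf, Uqcr, Atp5 or Cox4 to Cox8. They were taken by name from the 21205 genes of the deposited count table. Of 99 names with these prefixes, 8 that hold ".ps" (pseudogene names) were left out. The set has 41 genes of complex I subunits, 8 of complex I assembly factors, 8 of complex III, 17 of complex IV and 17 of the ATP synthase, grouped by prefix. All 91 had at least 1 unique molecular identifier (UMI) in some cell, and together they took 2.62% of all UMIs.

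The cells came from YUMM1.7 tumours, a mouse melanoma line grown under the skin of female mice, and were sorted as cDC1 into plates, 1 tumour of 1 mouse per plate. The 4 genotypes in the labels were Irf1_dXCR1 (5 plates, 223 cells), Irf1_FF (4 plates, 165 cells), Ikbkb_dXCR1 (4 plates, 133 cells) and Ikbkb_FF (1 plate, 34 cells), and the study's design text gives the FF mice as controls. IRF1 is a transcription factor induced by interferons, and Ikbkb codes for IKKβ, a kinase that activates NF-κB. The labels do not describe the alleles beyond these names. All Irf1 plates belong to experiment M3, with mice of 6 weeks in the deposited annotation. The Ikbkb plates belong to experiment M2: the control mouse and Ikbkb_dXCR1 replicates 1 and 2 were 8 weeks old, and Ikbkb_dXCR1 replicates 3 and 4 were 6 weeks old. Replicate numbers follow the order of the deposited records.

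Within plates, Ccr7+ cells (at least 1 UMI of Ccr7, the chemokine receptor that mature dendritic cells use to travel to lymph nodes; 170 cells, 27 of them with Xcr1 UMIs) were compared with Xcr1+ Ccr7- cells (149 cells; Xcr1 is the chemokine receptor that marks cDC1). The other 236 cells had neither transcript. The 2 states were compared over the 11 plates with at least 5 cells of each, so that the plate was the replicate and cells were not. Irf1_dXCR1 replicates 2 and 3 and Ikbkb_dXCR1 replicate 2 had too few. Percents of cells with a UMI, and median counts where a gene was found, are an exception. They pool the 170 and 149 cells of all 14 plates without pairing and are descriptions. Levels are given as a percent of a cell's UMIs, averaged over the cells of a plate, or as CPM, the UMIs of a gene summed over a plate's cells and set against the plate's TMM-scaled total. For the label cDC1, the 12 identity genes other than Xcr1, which defines a state, were looked up. All 12 were found in both states. Their summed level ranged over plates from 3574 to 8212 CPM in Ccr7+ cells and from 5016 to 10622 CPM in Xcr1+ Ccr7- cells. Finding a gene in some cell of a state is a weak check, and it was not made in the 236 cells with neither transcript.

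The plates held 18 to 59 cells and 2810321 to 10120557 UMIs, and the median cell had 143476 UMIs from 1578 genes. Irf1 had 228 ± 108 CPM in Irf1_dXCR1 plates and 342 ± 100 CPM in Irf1_FF plates (SD, n = 5 and 4; edgeR adjusted p = 0.685), and Ikbkb had 239 ± 87.8 CPM in Ikbkb_dXCR1 plates (n = 4) and 291 CPM in the Ikbkb_FF plate (edgeR adjusted p = 1), so neither targeted transcript passed its test. The counts are per gene and do not resolve parts of a transcript. Of the markers of other cell types, the melanoma, neutrophil and NK cell lists had a median summed level of 0 CPM in both states. The count table held only 3 of the 7 melanoma markers and 4 of the 6 neutrophil markers, so these levels cover part of each list. Fibroblast markers reached 3877 CPM in 1 plate's Ccr7+ cells, with a median of 17.9 CPM there and 48.2 CPM in Xcr1+ Ccr7- cells. The medians in Ccr7+ and then Xcr1+ Ccr7- cells were 56.2 and 49.9 CPM for T cells, 162 and 367 CPM for B cells and 113 and 38.7 CPM for endothelium. They were 569 and 398 CPM for plasmacytoid dendritic cells and 618.2 and 102 CPM for cDC2. Of 5 cDC2 markers tested, the edgeR log2 fold change was above 0 for 2, among them Tnip3 at 9.60, and below 0 for 3.

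The respiratory chain sits in the inner mitochondrial membrane. Complex I takes electrons from NADH, complex III passes them through cytochrome c to complex IV, which reduces oxygen, and the ATP synthase uses the proton gradient that these complexes build. Most subunits are encoded in the nucleus and imported, while a few core subunits are encoded by mitochondrial DNA. Dendritic cells change their use of glycolysis and oxidative phosphorylation as they are activated, which makes the mature state a natural point of comparison.

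Respiratory chain genes took a smaller share of the UMIs in Ccr7+ cells than in Xcr1+ Ccr7- cells of the same tumour, and most of the gap lay in complex I and the ATP synthase. Over plates, the summed share in Ccr7+ cells was 1.88% at the lowest, 2.11% at the median and 2.79% at the highest. In Xcr1+ Ccr7- cells it was 2.19%, 2.78% and 4.28%. The ranges overlap, but the plate pairs mostly run one way: the share was lower in Ccr7+ cells in 10 of 11 plates. The means were 2.19 ± 0.241% in Ccr7+ cells and 2.82 ± 0.578% in Xcr1+ Ccr7- cells (SD, n = 11 plates), a difference of -0.629 ± 0.458 percentage points (SD over plates). Irf1_FF replicate 3 was the exception, with 2.36% in Ccr7+ cells and 2.19% in Xcr1+ Ccr7- cells. The widest gap was in Ikbkb_dXCR1 replicate 3, with 2.79% in 15 Ccr7+ cells and 4.28% in 5 Xcr1+ Ccr7- cells. No p-value is given for summed shares, because the genes were chosen with earlier results of these data known.

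The gap was present in both experiments. In the 4 plates of M2 the mean was 2.24% in Ccr7+ cells and 3.15% in Xcr1+ Ccr7- cells, lower in 4 of 4. In the 7 plates of M3 it was 2.16% in Ccr7+ cells and 2.62% in Xcr1+ Ccr7- cells, lower in 6 of 7. Cells with neither transcript ranged from 1.69% in Irf1_FF replicate 4 to 4.78% in Ikbkb_dXCR1 replicate 2 over the 14 plates, with a median of 2.44%, so they spanned both states.

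**Figure D1:**
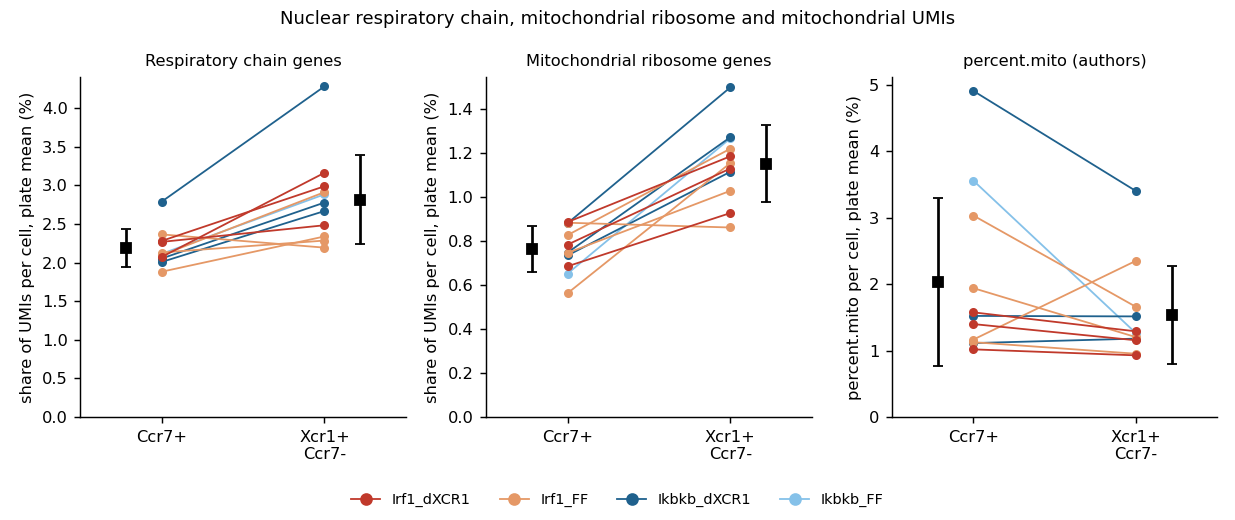
Plate means of the respiratory chain share of UMIs, the mitochondrial ribosome share of UMIs and the authors' percent.mito, all in percent, in Ccr7+ and Xcr1+ Ccr7- cells of 11 plates; lines join the 2 states of a plate, colours are genotypes, and squares with bars are the mean ± SD over plates. The first share is lower in Ccr7+ cells in 10 of 11 plates, while percent.mito is higher in 9 of 11.

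The complexes were not alike in this. Complex I subunits took 0.800 ± 0.106% of UMIs in Ccr7+ cells and 1.20 ± 0.280% in Xcr1+ Ccr7- cells (SD, n = 11), and the Ccr7+ value was lower in 10 of 11 plates. The ATP synthase took 0.554 ± 0.0999% in Ccr7+ cells and 0.718 ± 0.0905% in Xcr1+ Ccr7- cells, lower in 11 of 11. Complex IV, the cytochrome c oxidase that consumes oxygen, took the same share in both states, 0.520 ± 0.0960% in Ccr7+ cells and 0.520 ± 0.112% in Xcr1+ Ccr7- cells, and was lower in Ccr7+ cells in 4 plates and higher in 7. With Ndufa4, which is grouped here by its complex I name but is now placed in complex IV, the complex IV share was 0.549 ± 0.0963% in Ccr7+ cells and 0.585 ± 0.138% in Xcr1+ Ccr7- cells, lower in 7 of 11. By its means complex III stood between them, with 0.289 ± 0.0506% in Ccr7+ cells and 0.332 ± 0.147% in Xcr1+ Ccr7- cells. It was lower in Ccr7+ cells in 6 of 11 plates. Its mean difference of -0.0431 percentage points rested largely on 1 Ikbkb_dXCR1 plate, at -0.406. With 1 plate left out at a time, the mean difference came as close to none as -0.00684. The assembly factors of complex I, which build the complex without staying in it, were scarce, with 0.0245 ± 0.0134% in Ccr7+ cells and 0.0474 ± 0.0243% in Xcr1+ Ccr7- cells.

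**Figure D2:**
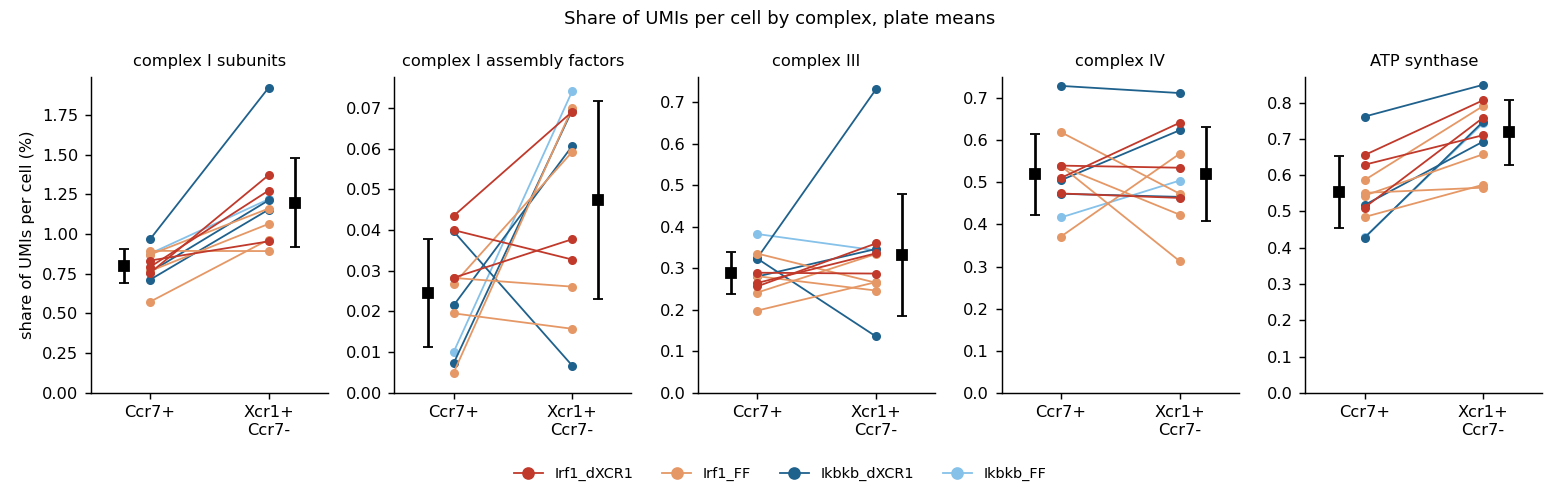
Share of UMIs per cell (percent, plate means) of each complex in Ccr7+ and Xcr1+ Ccr7- cells of 11 plates; lines join the states of a plate, colours are genotypes, and squares with bars are the mean ± SD. The ATP synthase is lower in Ccr7+ cells in every plate shown, complex I subunits in 10 of 11, and complex IV in 4 of 11; each panel has its own axis.

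The 2 states differ in how much RNA was read from a cell, and these measures move with the share. Ccr7+ cells had 1455 ± 375 genes per cell and Xcr1+ Ccr7- cells 2033 ± 340, lower in Ccr7+ cells in 11 of 11 plates, and spike-in RNA, added in equal amount to each well, took 7.55 ± 2.62% of the UMIs in Ccr7+ cells and 5.06 ± 1.75% in Xcr1+ Ccr7- cells. Per UMI of spike-in, respiratory chain UMIs were 0.498 ± 0.125 in Ccr7+ cells and 0.874 ± 0.109 in Xcr1+ Ccr7- cells, lower in 11 of 11. When each cell was thinned to 30000 UMIs the share was 2.23 ± 0.232% in Ccr7+ cells and 2.87 ± 0.617% in Xcr1+ Ccr7- cells over 10 plates, lower in 9. Among the cells with 1000 to 2500 genes, the difference in share was -0.563 percentage points over 5 plates. As a percent of the genes detected in a cell, however, the members stood at 2.47 ± 0.219% in Ccr7+ cells and 2.46 ± 0.274% in Xcr1+ Ccr7- cells, lower in 6 plates and higher in 5. In absolute terms 35.2 ± 6.79 members were found per Ccr7+ cell and 49.3 ± 7.16 per Xcr1+ Ccr7- cell. Beyond these values, the part of depth and gene number in the share was not tested.

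Gene by gene, nearly every member was found in a smaller part of the Ccr7+ cells. Detection was lower there for 88 of 91 members, and the exceptions, Atp5l, Cox6a2 and Cox8c, were each found in at most 3.53% of the cells of a state. This went with fewer genes of any kind: over 11 plates, genes per cell were 28.4% lower in Ccr7+ cells and members per cell 28.7% lower. The part of all genes with lower detection was not computed. The median member was found in 41.2% of Ccr7+ cells and 63.8% of Xcr1+ Ccr7- cells. Where a member was found at all, its median count per cell was 72 in Ccr7+ cells and 88 in Xcr1+ Ccr7- cells, medians over members. The median complex IV member was found in 58.8% of Ccr7+ cells and 75.8% of Xcr1+ Ccr7- cells, and the median complex III member in 59.1% of Ccr7+ cells and 77.5% of Xcr1+ Ccr7- cells. For the ATP synthase the medians were 52.9% of Ccr7+ cells and 78.5% of Xcr1+ Ccr7- cells. Complex I subunits were found in 35.3% of Ccr7+ cells and 59.7% of Xcr1+ Ccr7- cells at the median.

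**Figure D3:**
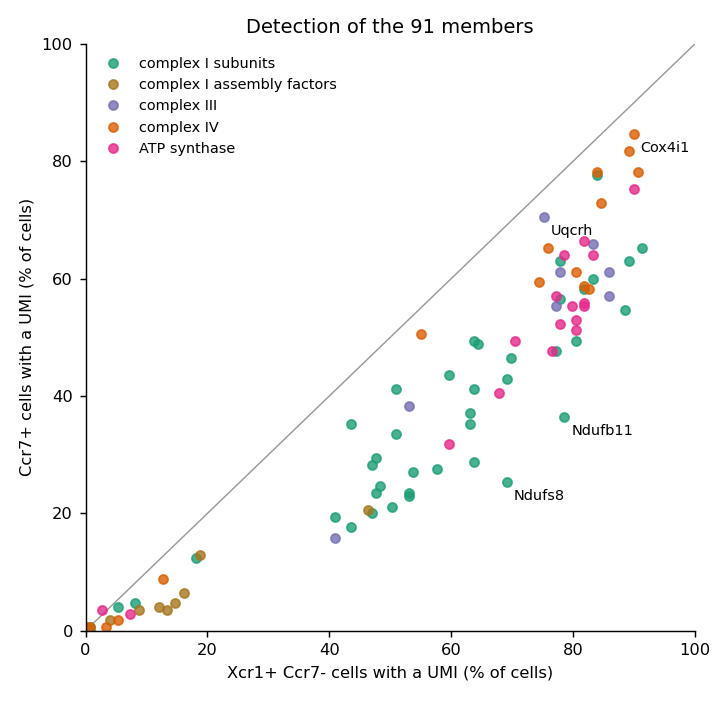
Percent of cells with at least 1 UMI of each of the 91 members, Ccr7+ cells (170, vertical axis) against Xcr1+ Ccr7- cells (149, horizontal axis); points are genes, colours are complexes, and the line marks equal detection. 88 of 91 points lie below the line. Ndufs8, at 25.3% against 69.1%, lies far below it and Cox4i1, at 84.7% against 89.9%, close to it. Cells are pooled over all 14 plates. Ccr7+ cells also had fewer genes of any kind per cell, a mean of 1455 over 11 plates against 2033 in Xcr1+ Ccr7- cells.

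No single member passed the test across all genes. In edgeR's quasi-likelihood fit of the 11 plates with the plate as a block, 82 members passed the filter on low counts and 0 of 82 were called higher or lower at an adjusted p under 0.05, while 2.12% of all 11235 genes tested were called in either direction (1.7% higher, 0.418% lower). Of the 82, 6 had an unadjusted edgeR p under 0.05, as did 1359 of all 11235 genes. The log2 fold change was below 0 for 62 members and above 0 for 20, with a median of -0.28. The median over all genes was -0.33, which is a little lower than that of the members. The 9 members under the filter were Atp5l, Cox6a2, Cox6c2, Cox8c, Ndufa11b, Ndufa4l2, Ndufaf6, Ndufb4c and Ndufs6b. TMM scaling and the pooling of UMIs, which lets cells with many UMIs weigh more, both enter this result. With limma-trend on log values that weigh cells equally and are not TMM-scaled, 24 of 82 members were called lower and 0 higher, where 6.28% of all genes were called lower and 2.37% higher (8.64% in all). The members' median was -0.35 and that of all genes -0.03. This scale adds 1 before the log, which presses the values of scarce genes towards 0. Of all 11235 genes, 2217 had 100 CPM or more. The median of all genes is therefore not like for like with that of the members, nor are these medians with those of edgeR. For limma-trend no share was computed over abundant genes alone. Among cytosolic ribosomal genes it called 26 of 91 lower, so a high share of lower calls was not particular to the members. DESeq2 called 9 of 82 lower and 1 higher, beside 9.97% of all genes lower and 5.89% higher (15.9% in all), so its share of members is close to that of all genes. With RLE size factors 1 member was lower (2.2% of all genes called, 1.66% higher and 0.543% lower), and without the plate block 2 were (3.65%, 2.91% and 0.737%). Among genes of 100 CPM or more 1 was lower (12.1%, 9.29% and 2.8%), as it was with at least 10 UMIs for a positive cell (4.04% in all) and in M2 alone (1.01%). By prefix, the 24 calls of limma-trend fell on 15 complex I subunits, 6 ATP synthase genes, 2 of complex III and 1 of complex IV; with Ndufa4 placed in complex IV they were 14 of complex I and 2 of complex IV.

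Ndufs8, an iron-sulphur subunit on the electron path of complex I, had the smallest p of the set. It stood at 185 CPM at the lowest, 219 at the median and 420.1 at the highest in Ccr7+ cells, against 399, 526.4 and 802 CPM in Xcr1+ Ccr7- cells. It was lower in Ccr7+ cells in 11 of 11 plates, though the 2 ranges overlap. The log2 fold change was -1.005 ± 0.300 (SE), with an edgeR adjusted p = 0.0955 that misses the threshold and a limma-trend adjusted p = 0.000367; DESeq2 also called it. A UMI of Ndufs8 was found in 25.3% of Ccr7+ cells and 69.1% of Xcr1+ Ccr7- cells. Ndufb11, a supernumerary subunit of the membrane arm encoded on the X chromosome, stood at 117, 328 and 547 CPM (lowest, median, highest) in Ccr7+ cells and 409.8, 489 and 1021 CPM in Xcr1+ Ccr7- cells. It too was lower in 11 of 11 plates, with a log2 fold change of -0.87 ± 0.29 and an edgeR adjusted p = 0.155. Atp5c1, the gamma subunit that turns inside the ATP synthase, stood at 254, 873 and 1259.6 CPM in Ccr7+ cells and 700, 1056 and 1305 CPM in Xcr1+ Ccr7- cells, lower in 9 of 11 plates (log2 fold change -0.52 ± 0.20, edgeR adjusted p = 0.273).

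On the other side, Cox4i1, the ubiquitous form of complex IV subunit 4, stood at 793, 1545 and 2206 CPM in Ccr7+ cells and 955, 1209 and 1430.1 CPM in Xcr1+ Ccr7- cells. It was higher in Ccr7+ cells in 9 of 11 plates, with a log2 fold change of 0.36 ± 0.14 and an edgeR adjusted p = 0.251. Uqcrh, the hinge protein of complex III that sits beside cytochrome c1, stood at 346, 644 and 963 CPM in Ccr7+ cells and 177, 425 and 636 CPM in Xcr1+ Ccr7- cells. It was higher in 10 of 11 plates (log2 fold change 0.66 ± 0.26, edgeR adjusted p = 0.265) and was the 1 member that DESeq2 called higher. Ndufs4, an accessory complex I subunit, stood at 133, 276 and 490.4 CPM in Ccr7+ cells and 54.0, 202 and 328 CPM in Xcr1+ Ccr7- cells, higher in 8 of 11 plates but with a wide error (0.52 ± 0.45, edgeR adjusted p = 0.684). These 6 genes kept their sign in each of the 11 fits that left out 1 plate.

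Ndufs8 lies on chromosome 19 from 3908863 to 3912774, Ndufb11 on chromosome X from 20615326 to 20617619, Atp5c1 on chromosome 2 from 10056016 to 10080510, Cox4i1 on chromosome 8 from 120668222 to 120674207, Uqcrh on chromosome 4 from 116066965 to 116075071 and Ndufs4 on chromosome 13 from 114287795 to 114388258 (GENCODE M21, build GRCm38; Cox4i1 on the plus strand and the others on the minus strand). The promoters of Ndufs8, Ndufb11 and Uqcrh are shown because, of the 6 genes above, these had the most uniform direction over plates, lower in Ccr7+ cells for the first pair and higher for the last. The windows are chr19:3912725-3913024, chrX:20617570-20617869 and chr4:116075021-116075320 on the minus strand (RefSeq, GRCm38.p6), 300 bases each, from 250 before to 50 after the annotated start. Capitals mark the letters CCGGAAG on either strand, a core of sites for ETS factors such as GABP, which is known to act on respiratory chain promoters.
Ndufs8: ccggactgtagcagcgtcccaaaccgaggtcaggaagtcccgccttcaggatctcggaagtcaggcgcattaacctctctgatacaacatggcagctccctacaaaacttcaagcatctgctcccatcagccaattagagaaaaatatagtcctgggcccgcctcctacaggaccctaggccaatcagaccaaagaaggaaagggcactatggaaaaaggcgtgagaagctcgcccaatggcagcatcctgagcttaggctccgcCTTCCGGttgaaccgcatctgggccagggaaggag
Ndufb11: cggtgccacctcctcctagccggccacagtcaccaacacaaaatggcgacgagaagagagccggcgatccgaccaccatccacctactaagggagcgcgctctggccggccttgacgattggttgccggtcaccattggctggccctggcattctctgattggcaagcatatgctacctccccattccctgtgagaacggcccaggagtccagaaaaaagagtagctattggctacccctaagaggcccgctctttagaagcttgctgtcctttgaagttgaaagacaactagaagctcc
Uqcrh: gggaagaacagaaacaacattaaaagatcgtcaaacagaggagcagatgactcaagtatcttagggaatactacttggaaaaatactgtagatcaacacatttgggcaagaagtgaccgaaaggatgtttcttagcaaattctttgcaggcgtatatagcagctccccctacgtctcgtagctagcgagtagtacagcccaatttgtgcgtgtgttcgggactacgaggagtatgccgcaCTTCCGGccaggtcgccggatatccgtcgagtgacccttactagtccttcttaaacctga
Ndufs8 and Uqcrh, which stood on opposite sides, both hold the letters once, close to the start, and Ndufb11 holds none of the motifs searched.

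Over the whole set, 71 of 91 members matched 76 such windows. The ETS letters were in 16 of 76 (21.1%), against 8.86% of all 32851 windows. The letters GCATGCGC, a core of sites for the factor NRF1, were in 11 of 76 (14.5%), against 2.71%. The same letters with GC directly in front of them, the palindromic full site, were in 7 of 76 (9.21%), among them Uqcrc1, Cox6a1 and Ndufaf4, against 0.971% of all windows. The YY1 letters AAGATGGCG were in 8 of 76 (10.5%), among them Ndufs4, Ndufs7 and Ndufa9, against 1.40%. Both strands were searched. A match describes the letters and is not evidence of binding in these cells.

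**Figure D4:**
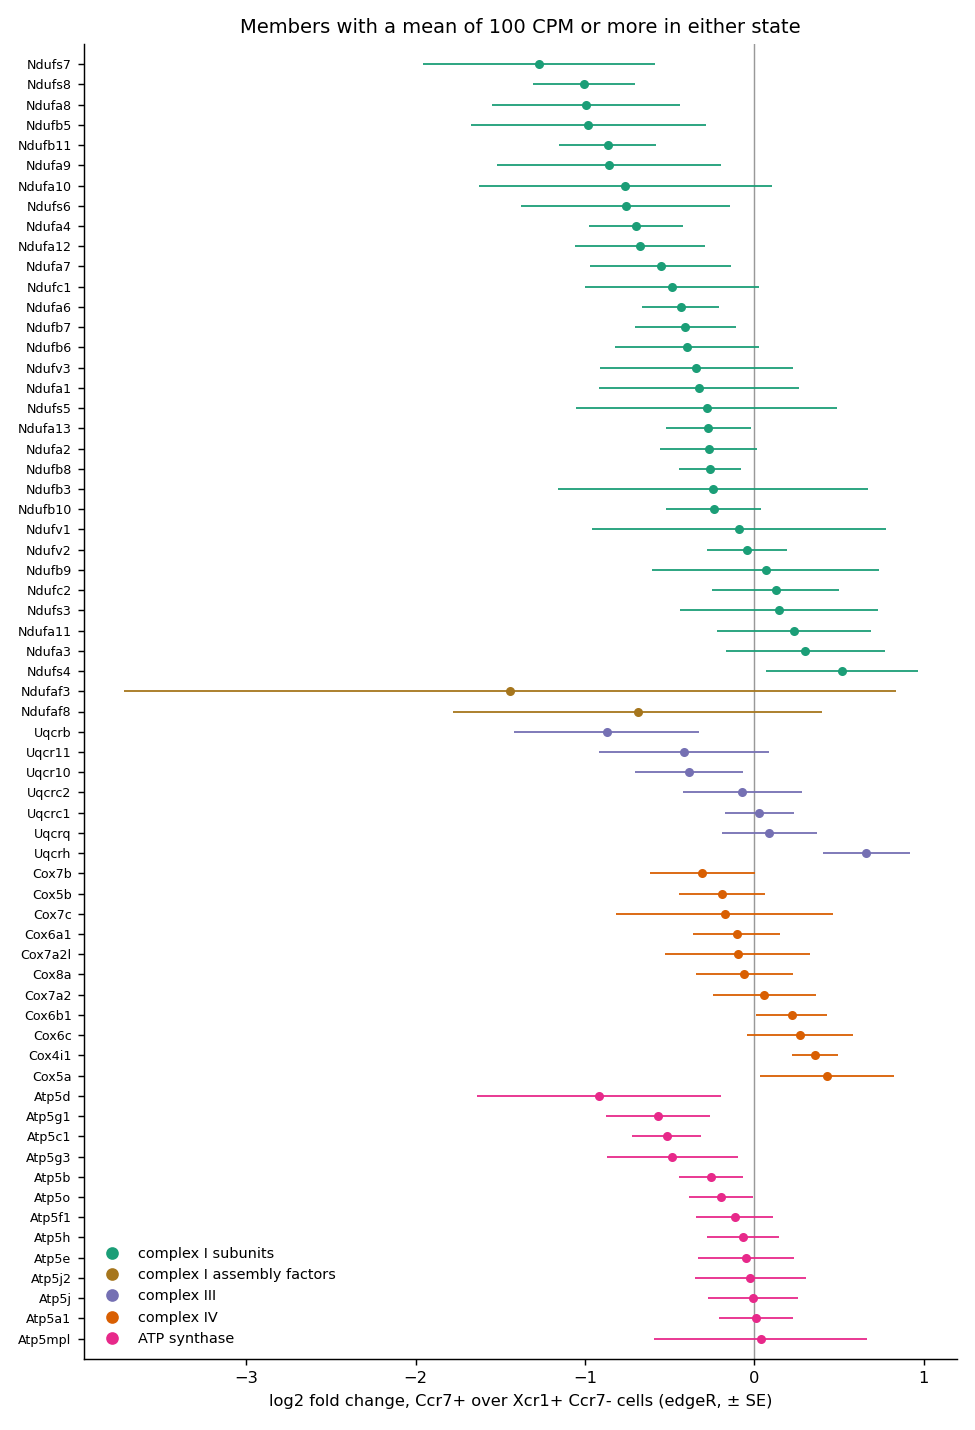
Log2 fold change (edgeR, ± SE, horizontal axis) of Ccr7+ over Xcr1+ Ccr7- cells for 64 members with a mean of 100 CPM or more in either state, 1 further such member not being drawn; colours are complexes. 48 of the 64 points lie below 0, complex IV genes lie around 0, and no point passed an adjusted p of 0.05.

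Among the members called lower by limma-trend, the next 5 by adjusted p were Ndufa8, Uqcrb, Ndufb5, Ndufa6 and Ndufa4. Ndufa8, an accessory complex I subunit, had 300 ± 161 CPM in Ccr7+ cells and 516 ± 111 CPM in Xcr1+ Ccr7- cells (SD, n = 11; edgeR adjusted p = 0.496). Uqcrb, the ubiquinone-binding subunit of complex III, had 208 ± 118 CPM in Ccr7+ cells and 321 ± 90.8 CPM in Xcr1+ Ccr7- cells (edgeR adjusted p = 0.559). Both were lower in Ccr7+ cells in 10 of 11 plates. Ndufb5 had 157 ± 90.0 CPM in Ccr7+ cells and 234 ± 87.9 CPM in Xcr1+ Ccr7- cells, and Ndufa6 had 551 ± 147 CPM in Ccr7+ cells and 738 ± 171 CPM in Xcr1+ Ccr7- cells; both are accessory complex I subunits. Ndufa4 had 341 ± 99.2 CPM in Ccr7+ cells and 547 ± 119 CPM in Xcr1+ Ccr7- cells, lower in 10 of 11 plates (edgeR adjusted p = 0.283).

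Of the other most abundant members of each complex, none passed the test. Uqcrc1, a core protein of complex III, had 809 ± 169 CPM in Ccr7+ cells and 798 ± 198 CPM in Xcr1+ Ccr7- cells. Uqcrq, a small complex III subunit, had 505 ± 119.9 CPM in Ccr7+ cells and 488 ± 167 CPM in Xcr1+ Ccr7- cells. Cox6b1, an accessory complex IV subunit, had 673 ± 134 CPM in Ccr7+ cells and 589 ± 162 CPM in Xcr1+ Ccr7- cells, higher in 7 of 11 plates. Atp5o, the stalk subunit that confers oligomycin sensitivity, had 656 ± 120.2 CPM in Ccr7+ cells and 753 ± 144 CPM in Xcr1+ Ccr7- cells, lower in 8 of 11. Of complex I, Ndufb8 had 692 ± 163 CPM in Ccr7+ cells and 828 ± 181 CPM in Xcr1+ Ccr7- cells, and Ndufa13 had 511 ± 163 CPM in Ccr7+ cells and 599 ± 142 CPM in Xcr1+ Ccr7- cells. Their edgeR adjusted p-values ran from 0.603 to 1. Counts come from 5′ tags, which lie at 1 end of a transcript, so they were not divided by gene length. Whether UMIs differing by sequencing errors were merged is not given in the sources used here, and the median non-zero count of 64 is high for UMIs of 5 bases, so counts may not equal molecules.

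UMIs of the tissue-specific forms of complex IV were found in few cells. Cox4i2, the lung form, was found in 0.588% of Ccr7+ cells and 0.671% of Xcr1+ Ccr7- cells, and its partner Cox4i1 in 84.7% of Ccr7+ cells and 89.9% of Xcr1+ Ccr7- cells. Cox6a2 and Cox7a1, forms of heart and skeletal muscle, were found in at most 0.588% and 5.37% of the cells of a state. Cox6b2, a testis form, was found in 0.588% of Ccr7+ cells and 3.36% of Xcr1+ Ccr7- cells, and Cox8c in 0.588% of Ccr7+ cells and 0 of 149 Xcr1+ Ccr7- cells, which allows a share of cells with a UMI of up to 2.01%. Cox6a2 was likewise in 0 of these 149 cells. Ndufa4l2, a hypoxia-induced relative of Ndufa4, was found in 0 of 170 Ccr7+ cells, which allows up to 1.76% with a UMI, in 0.671% of Xcr1+ Ccr7- cells and 4.24% of the cells with neither transcript. These limits are 3 cells over the cells of the state, pooled over plates and taken as independent. They cover counting error and cells with a UMI, not the spread between plates and not cells that express the gene. The ubiquitous partners Cox6a1, Cox7a2 and Cox8a, and Cox7a2l, which is related to Cox7a2 by name, had log2 fold changes between -0.10 and 0.06 in edgeR.

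Of the names left out for ".ps", Ndufb1.ps carried 103 CPM over all cells and was found in 58.6% of them, while the other 7 had 1.06 CPM or less. Under its own name Atp5l had 1.18 CPM. Reads shared between near-identical copies could fall under either name, so both are uncertain.

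For mitochondrially encoded RNA the plate means were higher in Ccr7+ cells, but the difference did not pass the test and was smaller with plate medians over cells. percent.mito, the share of mitochondrial UMIs per cell that the authors deposited as a fraction and that is given here in percent, was 1.02% at the lowest, 1.52% at the median and 4.90% at the highest in Ccr7+ plates, and 0.927%, 1.26% and 3.40% in Xcr1+ Ccr7- plates. The means were 2.03 ± 1.26% in Ccr7+ cells and 1.53 ± 0.733% in Xcr1+ Ccr7- cells, higher in 9 of 11 plates (exact two-sided sign-flip permutation p = 0.104, n = 11). With medians over the cells of a plate it was 1.22 ± 0.244% in Ccr7+ cells and 1.12 ± 0.412% in Xcr1+ Ccr7- cells, a difference of 0.0926 percentage points (exact permutation p = 0.565), and without cells under 500 genes the difference of means was 0.0562 (exact permutation p = 0.723). With 1 plate left out at a time, the difference of means ran from 0.317 to 0.665 percentage points. The largest came without Irf1_FF replicate 3, the plate that ran most against it (exact permutation p = 0.00586). The order was also turned in 1 Ikbkb_dXCR1 plate, at -0.0669. In the cells with 1000 to 2500 genes the difference was -0.0159 percentage points over 5 plates (exact permutation p = 0.938). Split by class, mitochondrial ribosomal RNA was 0.716 ± 0.450% in Ccr7+ cells and 0.431 ± 0.210% in Xcr1+ Ccr7- cells, higher in 10 of 11 plates, and the protein-coding mitochondrial transcripts were 1.30 ± 0.850% in Ccr7+ cells and 1.09 ± 0.510% in Xcr1+ Ccr7- cells, higher in 7 of 11. By plate medians the coding transcripts turned, at 0.740 ± 0.182% in Ccr7+ cells and 0.780 ± 0.258% in Xcr1+ Ccr7- cells, lower in 5 of 11 plates and higher in 6. Of 7 mitochondrially encoded transcripts tested, mt.Co1, the catalytic subunit of complex IV, rose to 3168 ± 665 CPM in Ccr7+ cells, against 2237 ± 345 CPM in Xcr1+ Ccr7- cells (log2 fold change 0.49 ± 0.08, higher in 11 of 11 plates, edgeR adjusted p = 0.000923), and the other 6 did not pass; limma-trend called 0 of the 7, with an adjusted p = 0.166 for mt.Co1.

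For the mitochondrial ribosome, which translates the mitochondrial transcripts, the summed share was 0.762 ± 0.104% in Ccr7+ cells and 1.15 ± 0.175% in Xcr1+ Ccr7- cells, lower in 10 of 11 plates. In edgeR 1 of its 76 tested genes was lower and 0 higher, with a median log2 fold change of -0.84; this was Mrpl42, a protein of the large subunit, at 386 ± 176 CPM in Ccr7+ cells and 747 ± 129.9 CPM in Xcr1+ Ccr7- cells (edgeR adjusted p = 0.0328). limma-trend called 18 of the 76 lower and 1 higher. Cytosolic ribosomal genes had 1 of 91 higher and 0 lower in edgeR, and 1 higher and 26 lower in limma-trend, so such calls were also made outside the mitochondrion. Their summed share was 4.96 ± 0.643% in Ccr7+ cells and 5.66 ± 0.930% in Xcr1+ Ccr7- cells. Of the 7 complex II genes, 20 genes of the tricarboxylic acid cycle and 15 of fatty acid oxidation that were tested, edgeR called 0, with medians of 0.07, -0.59 and -0.33. limma-trend called 1 of complex II lower (Sdhb), 6 of the tricarboxylic acid cycle lower and 1 higher, and 1 of fatty acid oxidation higher. Sdhb, the iron-sulphur subunit of complex II, had 823 ± 206 CPM in Ccr7+ cells and 1000.4 ± 219 CPM in Xcr1+ Ccr7- cells (edgeR adjusted p = 0.522). Of 17 tested genes of cytochrome c and its shuttling edgeR called 0, and limma-trend called 1 lower. This was Cycs, cytochrome c itself, which had 562 ± 150 CPM in Ccr7+ cells and 889 ± 165 CPM in Xcr1+ Ccr7- cells, lower in 10 of 11 plates (log2 fold change -0.68 ± 0.20, edgeR adjusted p = 0.0932, limma-trend adjusted p = 0.000457).

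edgeR made calls among the carriers and in glycolysis. Of the ADP/ATP carriers of the inner membrane, Slc25a5 fell to 864 ± 166 CPM in Ccr7+ cells, against 1373.5 ± 292 CPM in Xcr1+ Ccr7- cells (edgeR adjusted p = 0.0143), and Slc25a4 rose to 1226 ± 585 CPM in Ccr7+ cells, against 658 ± 173 CPM in Xcr1+ Ccr7- cells (edgeR adjusted p = 0.0362). limma-trend also called Slc25a5 lower but not Slc25a4 (adjusted p = 0.348). Among 12 carriers and ATPase factors edgeR called these 2, and limma-trend called 3 lower and 0 higher. In glycolysis edgeR called 2 of 26 genes higher and 1 lower, and limma-trend 2 higher and 3 lower. Ldha, which makes lactate, fell to 607 ± 211 CPM in Ccr7+ cells, against 1095 ± 245 CPM in Xcr1+ Ccr7- cells (log2 fold change -0.90 ± 0.17, edgeR adjusted p = 0.00288), while the aldolase Aldoa rose to 1026 ± 439 CPM in Ccr7+ cells, against 576 ± 199.6 CPM in Xcr1+ Ccr7- cells (edgeR adjusted p = 0.0275, limma-trend adjusted p = 0.336), and the enolase Eno3 rose to 297 ± 189 CPM in Ccr7+ cells, against 14.0 ± 23.3 CPM in Xcr1+ Ccr7- cells (edgeR adjusted p = 0.0272). Of 14 regulators of mitochondrial biogenesis, 23 import genes, 10 genes of oxygen radical defence and 14 of heat shock edgeR called 0, with medians of -2.26, -0.77, -0.47 and -0.81. limma-trend called 0, 4, 4 and 2 of them lower in the same order, and 0 higher.

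The states also differed in other genes and in the part of their cells with detected markers of other cell types or of cycling. Of 15 mature dendritic cell genes tested, 14 were higher in Ccr7+ cells, Ccr7 itself being part of the definition, and 2 of 13 cDC1 identity genes, Naaa and Wdfy4, were lower in edgeR. limma-trend called 15 of the mature genes higher and 11 of the 13 identity genes lower, 10 of 12 without Xcr1, which defines a state. Among 5 tested cDC2 markers 1 was higher in both tests, Tnip3, at 455 ± 250.02 CPM in Ccr7+ cells and 5.16 ± 9.01 CPM in Xcr1+ Ccr7- cells (edgeR adjusted p = 1.53e-05). The edgeR log2 fold change was below 0 for 3 of the 5. At least 2 markers of 1 other cell type (macrophage, fibroblast, T cell, B cell, neutrophil or melanoma) were found in 35.3% of Ccr7+ cells and 73.8% of Xcr1+ Ccr7- cells. In cells with neither transcript the part was 69.9%. Genes of any kind per cell were also fewer in Ccr7+ cells, and their part in these percents was not tested. Of the 20 cycling genes, Mcm6 was lower in edgeR (adjusted p = 0.0485) and 5 were in limma-trend, and at least 4 of them were found in 11 Ccr7+ cells (6.47%) and 44 Xcr1+ Ccr7- cells (29.5%). Within Xcr1+ Ccr7- cells of 6 plates, the respiratory chain share was 2.90 ± 0.516% in 35 cycling cells and 2.71 ± 0.664% in 51 others, higher in 3 plates and lower in 3. With cycling cells left out, edgeR called 0 of 82 members over 8 plates, beside 1.89% of all genes. Macrophage markers, several of which cDC1 also carry, ranged from 486 to 3161 CPM in Ccr7+ plates and from 748 to 4123 CPM in Xcr1+ Ccr7- plates, and 1 of 11 tested, Cd68, was lower in Ccr7+ cells in edgeR, and 2 in limma-trend. Their part in the shares was not tested.

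From cell to cell, the share went with that of the mitochondrial ribosome in both states. In 170 Ccr7+ cells Spearman's rho of the respiratory chain share was 0.50 with the mitochondrial ribosome share, 0.48 with the cytosolic ribosomal share and -0.16 with percent.mito; in 149 Xcr1+ Ccr7- cells it was 0.57, 0.26 and -0.26. Within plates the median rho in Ccr7+ cells (8 plates) was 0.55, 0.61 and -0.08 in the same order, and in Xcr1+ Ccr7- cells (7 plates) 0.58, 0.12 and -0.27, where that with the cytosolic ribosome ranged from -0.53 to 0.70. Complex I and ATP synthase shares went together at 0.44 in Ccr7+ cells and 0.56 in Xcr1+ Ccr7- cells, and complex III and IV shares at 0.13 in Ccr7+ cells and 0.32 in Xcr1+ Ccr7- cells. The shares have the cell's UMI total in common and the cells share plates, so these are descriptions.

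Between Irf1_dXCR1 and Irf1_FF plates no member was called. Over all cells the summed share was 2.31, 3.11, 2.45, 2.60 and 2.27% in Irf1_dXCR1 replicates 1 to 5, against 2.48, 2.27, 2.38 and 1.99% in Irf1_FF replicates 1 to 4. The ranges overlap, with Irf1_dXCR1 replicate 2 the highest plate, which also had the fewest genes per cell in its group (a mean of 898). Of its 37 cells, 8 were Ccr7+, 4 were Xcr1+ Ccr7- and 25 had neither transcript. Values over all cells mix these classes, whose parts differed between plates, and the part of this mix was not tested. The means were 2.55 ± 0.339% in Irf1_dXCR1 plates and 2.28 ± 0.211% in Irf1_FF plates (SD, n = 5 and 4), a difference of 0.270 percentage points. In edgeR 0 of 87 members tested were called, as were 0% of all 16203 genes. An unadjusted edgeR p under 0.05 was found for 5 members and for 1272 of all genes. DESeq2 called 0 members, beside 0.741% of all genes. The members' median log2 fold change was 0.15, with 62 above 0 and 25 below, beside -0.0048 for all genes.

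Ndufb7 and Ndufb8, subunits of the complex I membrane arm, had the smallest p among the higher ones. Ndufb8 had 733, 866, 1008, 983 and 729 CPM in Irf1_dXCR1 replicates 1 to 5 and 710, 580.0, 506 and 744 CPM in Irf1_FF replicates 1 to 4 (log2 fold change 0.44 ± 0.19, edgeR adjusted p = 0.519). Ndufb7 averaged 553 ± 97.4 CPM in Irf1_dXCR1 plates and 403 ± 46.4 CPM in Irf1_FF plates (edgeR adjusted p = 0.519). On the lower side, Ndufa10 averaged 146 ± 68.3 CPM in Irf1_dXCR1 plates and 250.1 ± 61.0 CPM in Irf1_FF plates (edgeR adjusted p = 0.519), and Ndufa6 528 ± 106 CPM in Irf1_dXCR1 plates and 604 ± 38.2 CPM in Irf1_FF plates (edgeR adjusted p = 1). In all 4 the plates of the groups overlap.

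Within the states no member passed either. In Ccr7+ cells the share was 2.21 ± 0.116% in Irf1_dXCR1 plates and 2.12 ± 0.198% in Irf1_FF plates (n = 5 and 4), and in Xcr1+ Ccr7- cells 2.88 ± 0.353% in Irf1_dXCR1 plates and 2.43 ± 0.325% in Irf1_FF plates (n = 3 and 4). edgeR called 0 of 83 and 0 of 84 members there, with 0 members at an unadjusted p under 0.05 in either state. In Ccr7+ cells 1409 of all 11786 genes were under that unadjusted threshold. All genes were called at 0% by edgeR in both states. DESeq2 called 0 members in either, beside 1.43% of all genes in Ccr7+ cells and 1.11% in Xcr1+ Ccr7- cells. The genes with the smallest p in Ccr7+ cells were Cox6b2 and Ndufaf2, an assembly factor, on the higher side and Atp5l and Atp5f1, a peripheral stalk subunit, on the lower; of these Atp5f1 averaged 404 ± 197 CPM in Irf1_dXCR1 plates and 654 ± 205 CPM in Irf1_FF plates (edgeR adjusted p = 0.680), and the others rested on 1 to 5 plates with any UMI. In Xcr1+ Ccr7- cells they were Ndufa13 and Ndufa4l2 and, on the lower side, Ndufa10 and Cox4i2. Ndufa13, a complex I subunit, had 726, 806 and 741 CPM in Irf1_dXCR1 replicates 1, 4 and 5, above the 583, 518, 488 and 459 CPM in Irf1_FF replicates 1 to 4, with an edgeR adjusted p = 0.692. Whether the gap between states itself differed by genotype was tested as an interaction over the 7 Irf1 plates, and 0 of 81 members were called (edgeR, with 0% of 10523 genes called and 0 members at an unadjusted p under 0.05; DESeq2 also called 0, beside 1.9% of all genes). The gap in the summed share was -0.671 ± 0.438 percentage points in 3 Irf1_dXCR1 plates and -0.314 ± 0.421 in 4 Irf1_FF plates.

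percent.mito over all cells was 1.62 ± 0.461% in Irf1_dXCR1 plates and 2.33 ± 0.632% in Irf1_FF plates (exact two-sided permutation p = 0.103, n = 5 and 4, the smallest possible being 0.00794). Without Irf1_FF replicate 1 the difference was -0.958 percentage points and the exact permutation p = 0.0357. This was the widest difference with 1 plate left out, and the narrowest was -0.452. Spike-in RNA took 5.14 ± 1.26% of UMIs in Irf1_dXCR1 plates and 7.34 ± 2.05% in Irf1_FF plates.

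**Figure D5:**
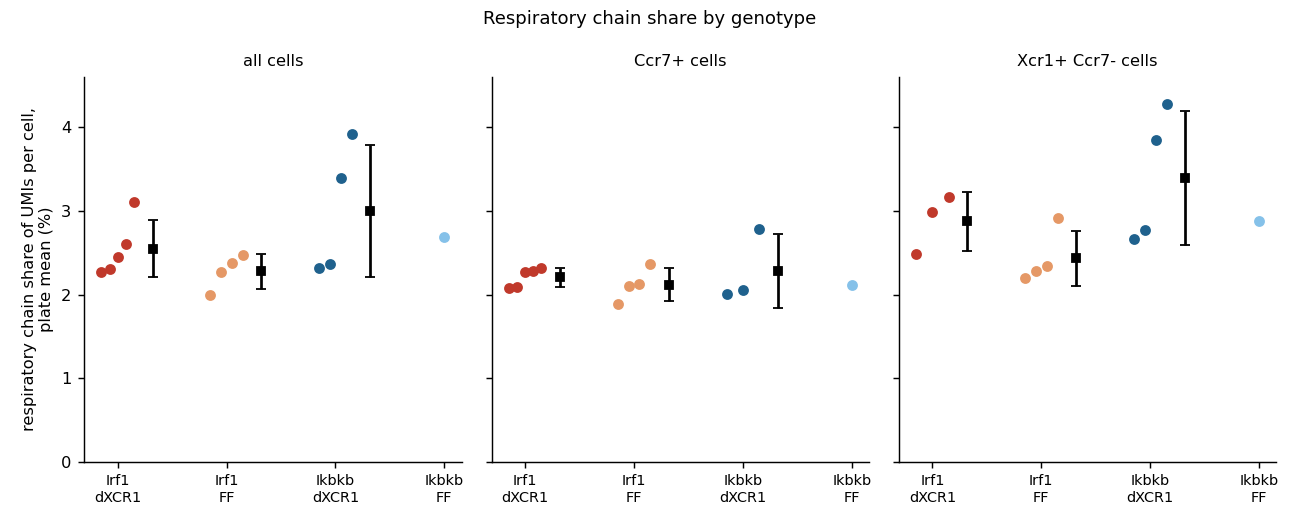
Respiratory chain share of UMIs per cell (percent, plate means) by genotype over all cells, Ccr7+ cells and Xcr1+ Ccr7- cells; points are plates, drawn in rising order within a group, with at least 5 cells where a state is shown, and squares with bars are the mean ± SD. The groups overlap in all 3 panels, and the 2 highest plates over all cells, at 3.39% and 3.92%, are Ikbkb_dXCR1.

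For Ikbkb there was 1 control plate, whose spread is taken from the other groups in the fit, and all Ikbkb plates belong to M2. Over all cells the share was 2.36, 3.92, 3.39 and 2.31% in Ikbkb_dXCR1 replicates 1 to 4, against 2.69% in the Ikbkb_FF plate, which lies among them. Replicates 1 and 2 came from mice of 8 weeks, as did the Ikbkb_FF plate, and replicates 3 and 4 from mice of 6 weeks. The part of age, and that of the mix of states in each plate, was not tested. In edgeR 0 of 87 members were called, as were 0% of 16203 genes, with 0 members at an unadjusted p under 0.05; DESeq2 called 0 members, beside 8.72% of all genes. Uqcrh, at 413, 641, 703 and 514.5 CPM in Ikbkb_dXCR1 replicates 1 to 4 and 364 CPM in the control plate, and Cox6a1, at 676 ± 150.0 CPM in Ikbkb_dXCR1 plates and 436 CPM in the control plate, had the smallest p on the higher side (edgeR adjusted p = 1 for both). On the lower side Uqcrc2, a complex III core protein, had 289 ± 136 CPM in Ikbkb_dXCR1 plates and 474 CPM in the control plate (edgeR adjusted p = 1). percent.mito was 2.08 ± 1.20% in Ikbkb_dXCR1 plates and 2.07% in the control plate (exact permutation p = 1, n = 4 and 1, the smallest possible being 0.2).

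In Ccr7+ cells of the Ikbkb plates 0 of 83 members were called by edgeR and 0.144% of all 11786 genes were (0.136% higher, 0.00848% lower). An unadjusted edgeR p under 0.05 was found for 7 members. The share of all genes at that unadjusted threshold is not given here, so the 7 are not read as particular to the members. DESeq2 called 6 members higher and 1 lower, beside 13.5% of all genes. Atp5d was called by edgeR with no filter on low counts (0.282% of all genes called), without cells under 500 genes (0.18%), without cells holding other-type markers (0.784%), without Ikbkb_dXCR1 replicate 1 (0.17%) or replicate 3 (0.156%) and, with Ndufa9, when these plates were fitted alone (0.718%). Atp5d, the delta subunit of the ATP synthase, was at 0 CPM in the 8 Ccr7+ cells of the control plate, where 3 counts would be 3.36 CPM. It stood at 1.02, 364 and 518 CPM in Ikbkb_dXCR1 replicates 1, 3 and 4 (edgeR adjusted p = 0.0934). Ndufa9, an accessory complex I subunit, was likewise at 0 CPM there and at 487, 200.4 and 342 CPM in the same 3 plates (edgeR adjusted p = 0.138). With the Irf1_FF plates added to the control, Atp5d had a log2 fold change of -0.15. In the other direction Uqcrfs1, the Rieske iron-sulphur protein of complex III, had at most 2.51 CPM in Ikbkb_dXCR1 plates and 160.0 CPM in the control plate, and Ndufs3 had 206 ± 71.2 CPM in Ikbkb_dXCR1 plates and 624 CPM in the control plate (edgeR adjusted p = 0.837 for both). In Xcr1+ Ccr7- cells edgeR called 0 of 84 members and 0% of all genes, DESeq2 called 0 members beside 5.5% of all genes, and edgeR gave an adjusted p = 1 for each of Cox6b2, Ndufa3 and Ndufb10, which were among the members with the smallest p. Ndufb10, a complex I membrane arm subunit, had 528, 761, 527 and 511 CPM in Ikbkb_dXCR1 replicates 1 to 4 and 1008 CPM in the control plate.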

How the data were processed

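Single cells were sorted into plates, and 5′ tags with UMIs of 5 bases were counted, so that no count can pass 1024. Per the submitters' processing notes the tools were bcl2fastq, STAR 2.5.3a and HTSeq 0.9.1 with build GRCm38; the sources used here do not give their roles or the cell filters. The deposited table holds UMI counts, unnormalized, and the authors' annotation gives percent.mito as a fraction of a cell's UMIs, as the authors deposited it, multiplied here by 100, with stainings as an arcsinh score the authors deposited. No cell was removed and no doublet caller was run on sorted single wells. The median non-zero count was 64, so low counts are rare and detection carries much of a difference; intervals were not computed, and counting error is only one part of the spread.

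Counts were summed by plate and state, filtered (filterByExpr), TMM-scaled and tested with edgeR 4.0.16 (quasi-likelihood, two-sided, Benjamini-Hochberg over all genes, threshold 0.05), with the plate as a block between states. limma 3.58.1, DESeq2 1.42.0 (R 4.3.3), other scalings, filters, cell minimums and each plate left out were alternatives; genes of 100 CPM or more and cells with 1000 to 2500 genes, and Ndufa4 counted with complex IV, were added after seeing the data. percent.mito was tested with exact permutations. The fits were tested on simulated data. Members, states and lists were chosen with earlier results of these data known.

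Named genes are the 3 per direction with the smallest p between states, 2 per direction per genotype comparison, the 2 most abundant per complex, the isoform families and up to 3 per list; Ndufa8, Uqcrb, Ndufb5 and Ndufa6 as limma-trend calls, the examples of promoter matches, and Ndufb1.ps were chosen after their values were seen. Values of 1 member are not reported here, though it stays in the fits and counts. Plates of a group are separate mice, per the study's design text, which counts them as no replicates; they are the replicates here.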

Additional observations from a re-analysis of the deposited data

Results flagged for a closer look

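Of 40 groups of 4 or 5 plates examined for a plate far from the others, 1 stood out; about 1 in 20 would by chance. Complex I assembly factors took 0.0812% of UMIs in Ikbkb_dXCR1 replicate 2 over all cells, against 0.0277% to 0.0314% in the other 3 Ikbkb_dXCR1 plates. The same plate had the highest respiratory chain share over all cells, 3.92%.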

How the results depend on the processing

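Between the states, 0 members were called higher and 0 lower by edgeR. DESeq2 gave 1 higher and 9 lower, and limma-trend with equal cell weights gave 24 lower. RLE scaling (Ndufs8), a minimum of 10 UMIs for a positive cell (Ndufb11), M2 alone (Atp5d, -4.84 on the log2 scale) and genes of 100 CPM or more gave 1 lower each, and leaving the replicate block (the plate) out of the fit gave 2 lower (Ndufa4 and Ndufs8). Leaving out each plate gave 0 in both directions, and a median log2 fold change between -0.42 and -0.23; leaving out cells with 2 or more markers of other types, which removed 335 cells and left 2 plates, moved it to -1.13 (all genes -1.27). It was -0.13 with upper-quartile factors (all genes -0.27), -0.11 with at least 10 cells (-0.29) and -0.16 in cells with 1000 to 2500 genes (0.03). Counting Ndufa4 with complex IV, chosen after seeing the data, gave share differences of -0.363 for complex I and -0.0356 for complex IV. The difference in summed share lay between -0.709 and -0.542 with each plate left out, for complex I between -0.438 and -0.343, for assembly factors -0.0285 and -0.0187, for complex III -0.0661 and -0.00684, for complex IV -0.0233 and 0.0190 and for the ATP synthase -0.179 and -0.148. Without cells of other-type markers assembly factors differed by -0.0803 and the ATP synthase by -0.289. As a percent of detected genes the differences were 0.00209 for all members, -0.152 for complex I, -0.0102 for assembly factors, 0.0260 for complex III, 0.115 for complex IV and 0.0239 for the ATP synthase. Per spike-in UMI the log2 ratios were -0.81, -0.96, -1.39, -0.65, -0.53 and -0.84 in the same order. The direction of the share differences of all members, complex III, complex IV and the ATP synthase thus depends on the scale. percent.mito differed by 0.317 to 0.665 with each plate left out and by -0.0159 in cells with 1000 to 2500 genes.

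No paired analysis was possible because replicate numbers of the genotypes only follow the order of records. With each plate left out, the Irf1 share difference ranged from 0.130 to 0.340 over all cells, from 0.00959 to 0.171 in Ccr7+ and from 0.304 to 0.643 in Xcr1+ Ccr7- cells, and percent.mito from -0.958 to -0.452; the Ikbkb differences ranged from 0.00485 to 0.539, -0.0835 to 0.307 and 0.214 to 0.752, and percent.mito from -0.555 to 0.336. Members called were 0 in each such fit but for Ikbkb in Ccr7+ cells, with 0 to 1 (Atp5d without replicate 1 or 3). There DESeq2 called 7, the plates compared alone 2 (Atp5d and Ndufa9), and no filter, cells under 500 genes left out and cells with other-type markers left out 1 each (Atp5d). With all FF plates as control Atp5d in Ccr7+ cells at -0.148, Ndufb10 in Xcr1+ Ccr7- cells at 0.0505 and percent.mito at -0.200; without other-type markers percent.mito was at -0.154. Cox6b2 in Xcr1+ Ccr7- cells ranged from 0 to 8.68 with each Ikbkb_dXCR1 plate left out, as its UMIs came from replicate 4. The interaction and the Xcr1+ Ccr7- genotype fits without cells of other-type markers could not be fitted. The causes were not tested.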

Other observations

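Cell size and surface protein were recorded for part of the cells. In 139 Ccr7+ cells Spearman's rho of the respiratory chain share was 0.02 with forward scatter and -0.05 with XCR1 staining, and in 111 Xcr1+ Ccr7- cells -0.03 and -0.13, over all plates together. Within plates the median rho with forward scatter was 0.19 over 7 plates of Ccr7+ cells and 0.37 over 5 plates of Xcr1+ Ccr7- cells, where it ranged from 0.17 to 0.62. In cycling Xcr1+ Ccr7- cells percent.mito was 0.897 ± 0.121%, against 1.36 ± 0.512% in the other Xcr1+ Ccr7- cells (SD, n = 6 plates), lower in 5 of 6.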
